A study of Mus musculus with 9 samples.

Results

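Mice that go through chronic social defeat and afterwards behave much like undefeated mice are called resilient. The comparison described here is between such mice and undefeated controls, in the RNA that was recovered from amygdala together with Argonaute 2 (Ago2). Its members were chosen by the group named in the sample titles: 3 resilient and 3 control arrays, 6 of the 9 arrays of the study. The other 3 arrays came from defeated mice called susceptible, and they enter where a difference between resilient mice and controls is set against the other outcome of defeat. All groups were male C57BL/6J mice without any transgene named in the labels. Defeated mice were 10 weeks old when repeated exposure to an aggressor began, and amygdala was collected 8 days after its end. Controls (numbered 1, 2 and 4) were collected at the same point without having been defeated. Each Affymetrix whole-transcript array received the product of 100 ng of RNA. The sources used here give neither the score that defined resilience nor whether an array was a separate animal, so p-values rest on a spread among arrays that may be technical only.

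Ago2 is the protein that holds a microRNA and, guided by it, binds messenger RNAs, which are then repressed or degraded. RNA recovered by precipitating Ago2 therefore holds messenger RNAs that were bound at the time, but also whatever was carried over. The amygdala links sensory cues to fear and social avoidance, and its responses to stress run in part through corticosterone and the glucocorticoid receptor. A value here is the log2 signal of a gene after RMA, and a difference of 1 would be a doubling. Neither total RNA of the same tissue nor a control precipitation was analysed here, so the amount of a transcript, its binding to Ago2 and its carry-over cannot be told apart, and neither can fewer cells of a type and less RNA per cell.

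Array resilient 1 stood apart from resilient 2 and 3 in several sets of cell type markers. The mean signal of 5 markers of central amygdala and striatal-type neurons (among them the dopamine receptor gene Drd1 and the sodium channel gene Scn4b) was 10.25, 9.28 and 9.27 in resilient 1, 2 and 3 and 9.30, 9.64 and 9.46 in the controls. Scn4b alone was at 10.03, 8.63 and 8.37 in the resilient arrays and at 8.37, 8.99 and 8.98 in the controls, so resilient 1 exceeded all controls while the other 2 did not. Cholinergic neuron markers had means of 6.86, 6.20 and 6.08 in resilient and 6.52, 6.41 and 6.23 in control arrays, over 7 genes. The striatal-type median difference was 0.11 with all arrays, where 5 of 5 were higher, and -0.23 without resilient 1, where 0 of 5 were. The cholinergic median was -0.03 and -0.16 in the same order.

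Markers of other cell types varied as well. The 4 oligodendrocyte and myelin genes in the table were all lower in resilient mice, with a median of -0.20, or -0.31 without resilient 1. The myelin protein gene Opalin was at 8.84, 8.09 and 8.07 in resilient and 8.81, 8.51 and 8.77 in control arrays, so resilient 1 lay above the controls and the other 2 below them. Choroid plexus and ependymal markers were higher for 18 of 20 genes, with a median of 0.13, but the list means overlapped, at 8.73, 9.06 and 9.21 in resilient and 8.69, 8.83 and 9.13 in control arrays. Without resilient 1 that median was 0.31. Of 9 microglia and macrophage markers 7 were lower, with a median of -0.08, and of 4 astrocyte markers 3 were higher, with a median of 0.05. Of 17 markers of basolateral excitatory neurons 2 were in the table and of 21 central amygdala and striatal-type markers 5, so the dissection could be checked only in part. The mean of 6 pan-neuronal genes was 11.96, 11.95 and 11.99 in resilient arrays, and their median difference from controls was -0.02. The part that these marker differences have in the results below was not tested, except where a value with the choroid plexus markers as a covariate or without resilient 1 is given.

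**Figure D1:**
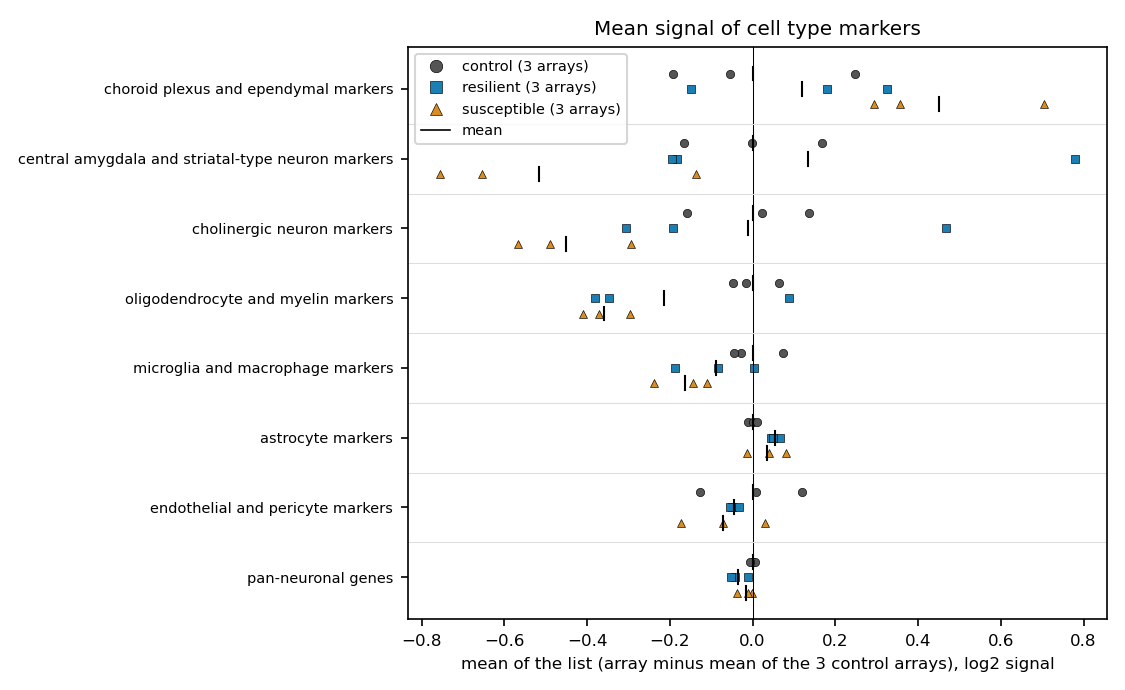
Mean log2 signal of 8 lists of cell type markers on each array, as the difference from the mean of the 3 control arrays (horizontal axis). Points are arrays, coloured by group, and the short black line is the group mean. Resilient 1 is the square far to the right for striatal-type and cholinergic markers, and the square beside the controls for oligodendrocyte markers.

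No gene passed the test between resilient and control mice. limma called 0 of 9803 genes (0.0%) at an adjusted p under 0.05, and the smallest adjusted p was 0.179, shared by 142 genes. At an unadjusted p under 0.05 there were 2077 genes (21.2%), 1332 higher (13.6%) and 745 lower (7.6%) in resilient mice. The resilient and control arrays did not overlap for 2756 genes (28.1%), 1638 higher (16.7%) and 1118 lower (11.4%). The authors' table holds only genes that differed among the 3 groups to some degree, so these shares serve as a background and are not numbers of changed genes. Leaving out resilient 1 again gave 0 calls by limma, with 1474 higher and 591 lower genes, 2065 in all, at an unadjusted p under 0.05. Between susceptible mice and the same controls limma called 235 genes (2.4%).

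Differences were small and more often positive. Of the 9803 genes 5724 were higher (58.4%), with a median of 0.03, and among the 5739 genes above the signal of nearly all olfactory and vomeronasal receptor genes, which the brain hardly uses, 4012 were higher, with a median of 0.06. The excess of higher genes depended on the scaling. With arrays shifted to one median 4683 genes (47.8%) were higher, and 642 higher and 1643 lower genes had an unadjusted p under 0.05. With quantile normalisation the numbers were 5098 (52.0%), 866 and 1019. Differences of at least 1.2-fold were seen for 141 higher and 115 lower genes, and of at least 1.5-fold for 2 higher and 5 lower. For comparison, the median standard deviation of a gene was 0.058 among controls and 0.054 among resilient arrays on the log2 scale.

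**Figure D2:**
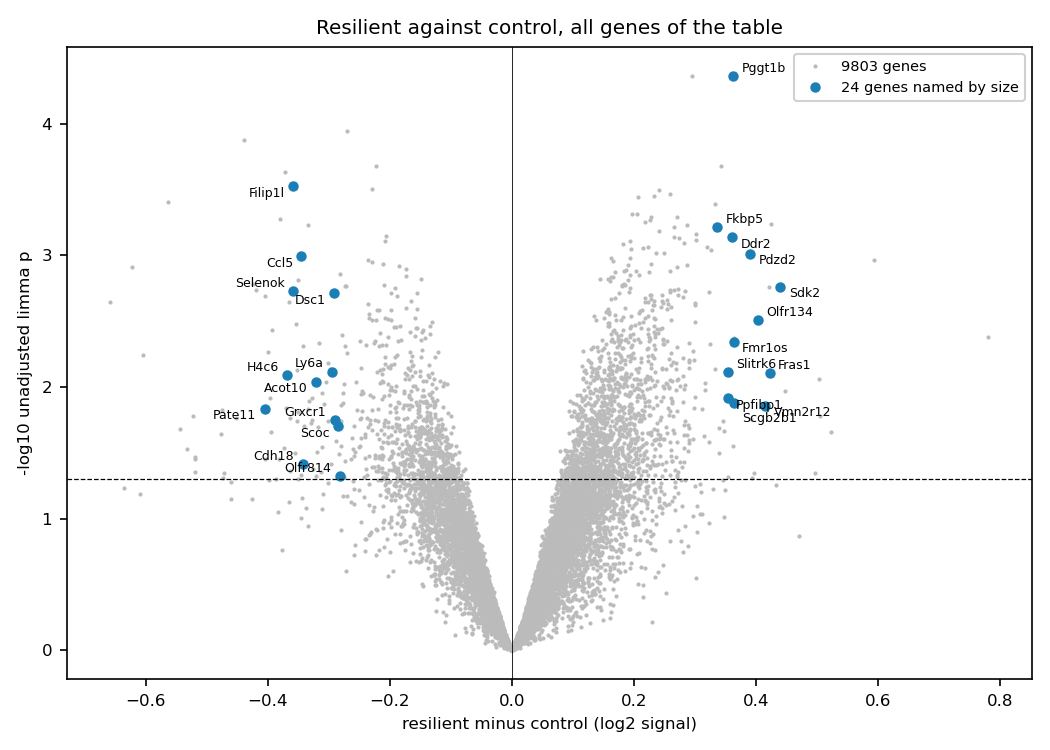
Difference between resilient and control mice (horizontal axis, log2 signal) against the unadjusted limma p of that difference (vertical axis, -log10 scale) for 9803 genes. Grey points are genes, the dashed line marks an unadjusted p of 0.05, and blue points are the 24 genes named for the size of their difference, 12 in each direction, between -0.40 for Pate11 and 0.44 for Sdk2.

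Fkbp5 had the largest difference of the 6 genes of the stress axis and of microRNA processing that were followed by name. It encodes a co-chaperone that makes the glucocorticoid receptor bind its hormone less tightly, and its own gene responds to that receptor. The log2 signal of Fkbp5 was 8.30, 8.29 and 8.35 in controls 1, 2 and 4 and 8.51, 8.74 and 8.70 in resilient 1, 2 and 3. All resilient arrays exceeded all controls, resilient 1 by the least. The difference was 0.34 (SE 0.067), or 1.26-fold, with a limma adjusted p of 0.179 over all genes and an unadjusted p of 0.000607. An exact permutation test of the 6 arrays gave a two-sided p of 0.1, the smallest that 3 arrays against 3 allow. With the choroid plexus markers as a covariate the difference was 0.31. Susceptible arrays, which were set against the same controls, were at 8.64, 8.81 and 8.78, and the resilient minus susceptible difference of -0.09 (SE 0.067) did not pass limma's test (adjusted p = 0.482).

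Dicer1, the nuclease that cuts microRNA precursors, was at 11.07, 10.98 and 10.85 in controls and 11.11, 11.24 and 11.23 in resilient mice. The groups did not overlap, and the difference was 0.23 (SE 0.065) with a limma adjusted p of 0.190. Ago2 itself had signals of 11.19, 11.29 and 11.35 in controls and 11.37, 11.44 and 11.39 in resilient mice, a difference of 0.13 (SE 0.067) with an adjusted p of 0.263 by limma. A second Ago2 entry, at a mean log2 signal of 10.94, differed by 0.05, and without control 1 the first differed by 0.08. The growth factor gene Bdnf lay at 6.27, 6.21 and 6.18 in controls and 6.02, 6.18 and 6.18 in resilient mice, close to the upper range of the receptor genes, and its difference of -0.09 (SE 0.051) left the groups overlapping and was -0.04 without resilient 1. Its receptor Ntrk2 differed by 0.03 (SE 0.037), a sign that turned with arrays shifted to one median (-0.0039). The microRNA gene Mir15a was at 5.31, 5.31 and 5.15 in controls and 5.49, 5.28 and 5.41 in resilient mice, within the range of the receptor genes, and the groups overlapped. Its difference was 0.14, or 0.09 without control 4. Nr3c1, Crh, Crhr1, Ctnnb1, Fos and Fosb were not in the table and are not analysed here.

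**Figure D3:**
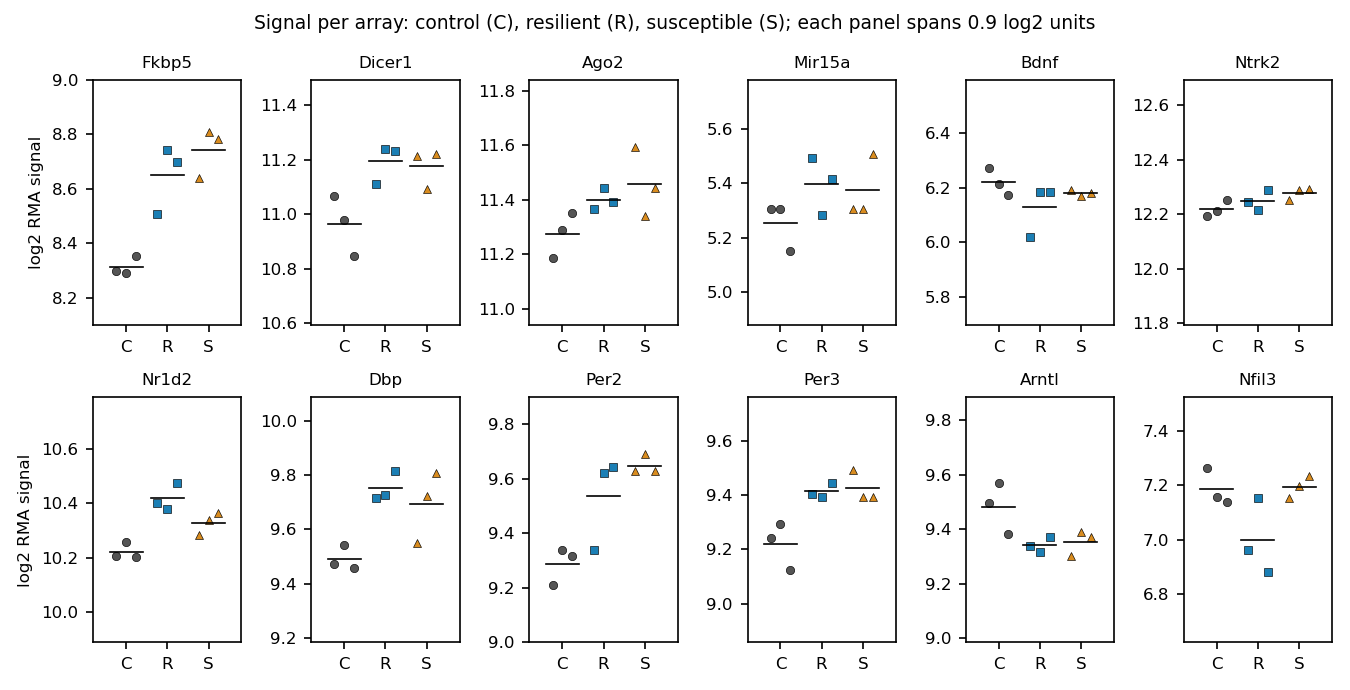
Log2 RMA signal on each array (vertical axis) for 12 genes in control (C), resilient (R) and susceptible (S) mice, 3 arrays each, with the group mean as a black line. Every panel spans 0.9 log2 units. The resilient arrays lie above all controls for Fkbp5, Dicer1, Ago2, Nr1d2, Dbp and Per3, and below all controls for Arntl.

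Above the receptor range 923 genes (9.42%) had an unadjusted p under 0.05 and no overlap, and of these 770 were higher in resilient mice (7.85%) and 153 lower (1.56%). With predicted genes and pseudogenes left out, the largest positive difference was that of Sdk2, which encodes a sidekick cell adhesion protein known for matching synaptic partners in the retina. Sdk2 had 8.19, 8.10 and 8.48 in controls and 8.59, 8.63 and 8.87 in resilient mice, a difference of 0.44 (SE 0.10), and its limma adjusted p was 0.179. Next was Fras1, a basement membrane protein gene, at 7.80, 7.95 and 8.00 in controls and 8.09, 8.26 and 8.67 in resilient mice (difference 0.42, SE 0.13, limma adjusted p = 0.192). Pggt1b, the beta subunit of the enzyme that attaches geranylgeranyl lipids to small GTPases, had tight groups. It was at 7.94, 7.79 and 7.91 in controls and 8.30, 8.26 and 8.16 in resilient mice, and its difference of 0.36 (SE 0.051) had an unadjusted limma p of 4.36e-05. The collagen receptor gene Ddr2 stood at 7.67, 7.64 and 7.72 and 7.89, 8.12 and 8.11 in the same order, a difference of 0.36 (SE 0.073).

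Slitrk6, which encodes a transmembrane protein that shapes synapses, was at 7.02 ± 0.02 (SD, n = 3) in controls and 7.64, 7.29 and 7.20 in resilient mice, with resilient 1 the highest of all. Without resilient 1 its difference was 0.22 instead of 0.35. The scaffold genes Pdzd2 and Ppfibp1 (liprin beta 1) differed by 0.39 (SE 0.083) and 0.35 (SE 0.11). Without resilient 3 the difference of Ppfibp1 was 0.24 and that of Fras1 0.26. Fmr1os, transcribed from the opposite strand of the Fmr1 locus, differed by 0.36 (SE 0.098), the secretoglobin gene Scgb2b1 by 0.36 (SE 0.12), and the chemosensory receptor genes Olfr134 and Vmn2r12 by 0.40 (SE 0.10) and 0.42 (SE 0.14). With the choroid plexus markers as a covariate the difference was 0.35 for Fras1, 0.31 for Ppfibp1, 0.40 for Sdk2, 0.32 for Ddr2 and 0.38 for Pggt1b. Susceptible mice differed from the same controls by 0.56 for Fras1, 0.33 for Ddr2 and 0.34 for Fmr1os. For Olfr134 the resilient arrays lay above all susceptible arrays.

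The largest negative difference on the same terms was that of Pate11, of a family expressed in prostate and testis, at 7.49, 7.62 and 7.17 in controls and 7.10, 7.04 and 6.91 in resilient mice (difference -0.40, SE 0.14). The histone H4 gene H4c6 was at 7.09, 7.01 and 7.05 in controls and 6.90, 6.46 and 6.69 in resilient mice (difference -0.37, SE 0.11). Filip1l, which encodes a protein related to a filamin-binding regulator of cell migration, had groups well apart. It was at 6.51, 6.62 and 6.57 and 6.28, 6.06 and 6.27, a difference of -0.36 (SE 0.064) with a limma adjusted p of 0.179. Selenok, a selenoprotein of the endoplasmic reticulum, was at 8.57, 8.31 and 8.57 in controls and 8.10, 8.28 and 7.99 in resilient mice, and the T cell-attracting chemokine gene Ccl5 at 7.02, 6.92 and 7.16 and 6.81, 6.62 and 6.64. Their differences were -0.36 (SE 0.084) and -0.34 (SE 0.074), both with a limma adjusted p of 0.179.

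Other lower genes were Cdh18, a neuronal cadherin (difference -0.34, SE 0.14), the mitochondrial acyl-CoA thioesterase gene Acot10 (difference -0.32, SE 0.098) and the desmosomal cadherin gene Dsc1 (difference -0.29, SE 0.069). Ly6a, an anchored surface protein found on brain endothelium, lay between 11.18 and 11.32 in controls and between 10.83 and 11.09 in resilient mice. Endothelial and pericyte markers as a list were lower for 5 of 8 genes, with a median of -0.05. Scoc, a coiled-coil protein of the Golgi, differed by -0.29 (SE 0.10) and Grxcr1, known from the hair cells of the ear, by -0.29 (SE 0.10). Olfr814 differed by -0.28 (SE 0.12), while a second entry for the same gene, at a mean log2 signal of 5.46, differed by 0.24 in the opposite direction. Susceptible mice differed from the same controls by -0.37 for Filip1l, with a limma adjusted p of 0.0397. Their difference was -0.31 for H4c6 and Grxcr1, -0.27 for Dsc1, -0.25 for Ly6a, -0.24 for Cdh18, -0.21 for Ccl5 and -0.07 for Acot10.

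The genes of the silencing machinery around Ago2 were mostly higher in resilient mice than in controls, with a similar median in susceptible mice. Over these genes susceptible mice had a median of 0.13 against the same controls, and the median of resilient minus susceptible was -0.03. Between the defeated groups 0 of them had an unadjusted limma p under 0.05. Among 17 members in the table there were 16 higher and 1 lower, at a median of 0.10 against 0.03 for all genes. Of the 17, 16 lay above the receptor range, where 69.9% of all genes were higher, with a median of 0.06. limma called 0 members, 7 had an unadjusted p under 0.05, all 7 higher, and 9 had resilient arrays above all controls. Over all genes 13.6% were higher at such a p and 16.7% had resilient arrays above all controls. Without resilient 1 the count was 16 of 17 and the median 0.11, and it was 0.07 under either other scaling. The smallest unadjusted p belonged to Tnrc6c, one of the scaffold proteins that Ago2 recruits to silence a target, at 10.78, 10.73 and 10.88 in controls and 10.91, 11.08 and 11.03 in resilient mice (difference 0.21, SE 0.053). Its relatives Tnrc6a and Tnrc6b differed by 0.16 and 0.09. The RNA helicase gene Mov10 was at 8.76, 8.77 and 8.80 in controls and 8.95, 8.94 and 9.18 in resilient mice (difference 0.25, SE 0.072). Ago1, the paralogue of Ago2, differed by 0.10, and the exporter of microRNA precursors Xpo5 by 0.06. The 1 lower member, the chaperone gene Hsp90aa1, differed by -0.01, or 0.02 with quantile normalisation.

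MicroRNA genes were split in direction. Of 149 such genes 92 were higher, 57 were lower and the median difference was 0.04, a share higher of 61.7% against 58.4% for all genes. At an unadjusted p under 0.05 there were 20 higher and 10 lower genes, and limma called 0. Over all genes 13.6% were higher and 7.6% lower at such a p. With arrays shifted to one median 80 of 149 were higher and 14 higher and 23 lower genes had such a p, and with quantile normalisation these were 35 higher and 10 lower. Only 32 lay above the range of the receptor genes, so most values are near the lower end of the array. Such an entry does not separate a mature microRNA from its precursor or primary transcript. The 6 genes with the smallest p were Mir374b, Mir547, Mir450-1, Mir135a-2 and Mir452, all higher, and Mir346, which was lower. Both mature products of the 3 with the largest positive difference and of Mir346 follow, from RefSeq (GRCm38.p6), as the sequences through which each would pick its targets. The mature 5p products lie at chrX:103573112-103573133 (minus strand), chrX:53048206-53048227 (minus strand), chr10:92072141-92072163 (minus strand) and chr14:34894624-34894646 (plus strand) in the order shown. Capitals mark the seed, bases 2 to 8, which pairs with a target site, and no seed was shared among the mature products of these 6 genes.
mmu-miR-374b-5p: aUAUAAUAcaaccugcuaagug
mmu-miR-374b-3p: gGUUGUAUuaucauuguccgag
mmu-miR-450a-5p: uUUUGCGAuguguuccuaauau
mmu-miR-450a-1-3p: aUUGGGAAcauuuugcauaaau
mmu-miR-135a-5p: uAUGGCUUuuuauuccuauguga
mmu-miR-135a-2-3p: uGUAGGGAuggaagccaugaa
mmu-miR-346-5p: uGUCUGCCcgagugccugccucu
mmu-miR-346-3p: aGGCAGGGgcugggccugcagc

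Mir374b, on the X chromosome, was at 5.49, 5.55 and 5.50 in controls and 5.75, 5.92 and 5.78 in resilient mice, with no overlap and a difference of 0.30 (SE 0.073). Mir450-1, also X-linked, was at 6.69, 6.55 and 6.69 and 6.86, 6.93 and 6.97 (difference 0.28, SE 0.079), above the receptor range. Mir135a-2, on chromosome 10, had 5.62, 5.64 and 5.84 in controls and 5.94, 6.05 and 5.95 in resilient mice (difference 0.28, SE 0.084). miR-135a is known from mouse serotonin neurons, where it represses the transcripts of the serotonin transporter and of a serotonin receptor. Mir346, on chromosome 14, was lower, at 7.67, 7.73 and 7.73 in controls and 7.52, 7.54 and 7.54 in resilient mice (difference -0.18, SE 0.053). The limma adjusted p was 0.179 for Mir374b, 0.190 for Mir450-1 and 0.193 for both Mir135a-2 and Mir346. Susceptible arrays were at 5.75, 5.73 and 6.00 for Mir374b and at 7.57, 7.38 and 7.37 for Mir346, and for neither gene did the difference between the defeated groups pass limma's test (adjusted p = 0.943 and 0.417). X-linked microRNA genes were higher for 22 of 27, with a median of 0.11, and those on autosomes for 69 of 121, with a median of 0.03. Of all 366 X-linked genes analysed the share higher was 61.2%, with a median of 0.04.

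Circadian clock genes were more often higher than lower. The clock is a loop in which Clock and Arntl (also called Bmal1) switch on Per, Cry, Nr1d and Dbp genes. The products of the Per, Cry and Nr1d genes then hold the loop back. Of 18 genes measured 14 were higher and 4 were lower in resilient mice, the median being 0.09, and 14 were higher without resilient 1, 11 with arrays shifted to one median and 12 with quantile normalisation. limma called 0, and 5 higher and 2 lower genes had an unadjusted p under 0.05, against 13.6% and 7.6% of all genes. Of the 18, 17 lay above the receptor range, where 69.9% of all genes were higher, with a median of 0.06. Of the genes that the activators switch on, Nr1d2, a repressor of Arntl, was at 10.21, 10.26 and 10.20 in controls and 10.40, 10.38 and 10.48 in resilient mice (difference 0.20, SE 0.041, limma adjusted p = 0.179). Dbp, an activator that binds D-box elements, was at 9.47, 9.54 and 9.46 and 9.72, 9.73 and 9.81 (difference 0.26, SE 0.064). Per3 was at 9.24, 9.29 and 9.13 in controls and 9.40, 9.39 and 9.44 in resilient mice (difference 0.19, SE 0.050). The groups did not overlap for any of these genes.

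Per2 differed by 0.25 (SE 0.077), but resilient 1 and the highest control met at 9.34. On the other side of the loop Arntl was at 9.50, 9.57 and 9.38 in controls and 9.34, 9.31 and 9.37 in resilient mice, with all resilient arrays below all controls but control 4 close to them (difference -0.14, SE 0.051). Nfil3, which represses through the same D-box that Dbp activates, was at 7.26, 7.16 and 7.14 in controls and 6.96, 7.15 and 6.88 in resilient mice (difference -0.19, SE 0.067), with resilient 2 in the control range. Its susceptible arrays were at 7.15, 7.20 and 7.23, and the resilient minus susceptible difference was -0.20 (SE 0.067), with a limma adjusted p of 0.411. The paralogue Arntl2 went the other way from Arntl, at 0.21. Susceptible minus control was -0.13 for Arntl, 0.17 for Arntl2 and 0.20 for Dbp. Over the clock list susceptible mice had a median of 0.05 against the same controls, and the median of resilient minus susceptible was 0.01. Per1 (0.16) and Nr1d1 (0.10) had overlapping groups. The sources used here do not give the hour at which tissue was taken in each group.

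Stretches of the Per3 and Nr1d2 promoters are shown because these genes were among the higher ones and carry short elements of the loop. Sequences are from RefSeq (GRCm38.p6), and capitals mark the motif TTANGTAA (D-box), AGGTCA (bound by Nr1d and Ror proteins) or CACGTG (E-box), searched on both strands in the 250 bases before each start. The Per3 stretch lies on the minus strand at chr4:151044796-151044885 and the Nr1d2 stretch on the minus strand at chr14:18239137-18239226.
Per3: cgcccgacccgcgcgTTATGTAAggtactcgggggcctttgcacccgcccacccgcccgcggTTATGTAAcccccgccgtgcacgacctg
Nr1d2: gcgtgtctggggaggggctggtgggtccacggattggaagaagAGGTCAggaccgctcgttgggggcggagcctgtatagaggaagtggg
The D-box motif occurred in 3 of 15 clock genes with a promoter in the table (Per3, Rorb and Timeless) and in 2.44% of 27025 genes. The AGGTCA motif occurred in 4 of the 15 (Clock, Nfil3, Nr1d2 and Per1) and in 15.8% of all genes, and the E-box in 3 (Ciart, Cry1 and Per1) and in 6.86%. A match describes these letters only.

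Glucocorticoid-induced genes other than Fkbp5 differed by less. Of 21 measured 14 were higher (66.7%), with a median of 0.06. Of the 21, 17 lay above the receptor range, where 69.9% of all genes were higher, with a median of 0.06. An unadjusted p under 0.05 was seen for 6 genes, all 6 higher, with 0 called by limma. Over all genes 13.6% were higher and 7.6% lower at such a p. With arrays shifted to one median 1 higher and 1 lower gene had such a p, and with quantile normalisation 1 higher and 2 lower. Klf9, a transcription factor gene, was at 11.45, 11.57 and 11.63 in controls and 11.66, 11.69 and 11.74 in resilient mice (difference 0.15, SE 0.057), while a second entry, at a mean log2 signal of 6.21, differed by -0.10. Ddit4, an inhibitor of mTOR signalling, differed by 0.13 (SE 0.051) and Gpt2, an alanine transaminase, by 0.12 (SE 0.049). Tsc22d3, known as GILZ, was at 9.51, 9.36 and 9.45 and 9.60, 9.63 and 9.69 (difference 0.20, SE 0.086), and Nfkbia, the inhibitor of NF-kappa B, at 8.67, 8.54 and 8.51 and 8.79, 8.80 and 8.69 (difference 0.19, SE 0.077). These 5 genes had a limma adjusted p between 0.227 and 0.235. Plin4, which coats lipid droplets, had a difference of 0.31 (SE 0.15) with resilient arrays at 5.97, 5.96 and 5.96 and controls at 5.59, 5.86 and 5.52. The classical target Sgk1 differed by 0.06, a sign that turned with quantile normalisation (-0.0039), and the cell cycle inhibitor Cdkn1a by -0.10. The median of the list over genes was 0.09, 0.06 and 0.08 above the control mean in resilient 1, 2 and 3, and 0.07, 0.19 and 0.19 in the susceptible arrays. Of 11 receptor, chaperone and cofactor genes 4 were higher, among them the coactivator Ncoa2 (difference 0.15, SE 0.054), and the median was -0.03. With quantile normalisation 7 of the 11 were higher and the median was 0.01.

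Genes that write and read chromatin were mostly higher in resilient mice than in controls, with similar medians in susceptible mice. Of 61 DNA methylation and histone-modifying enzymes 58 were higher and 3 were lower, the median being 0.11. Among all genes above the receptor range 69.9% were higher, with a median of 0.06. For the same enzymes susceptible mice had a median of 0.13 against these controls, and the median of resilient minus susceptible was -0.02. At an unadjusted p under 0.05 there were 25 higher and 1 lower, with 0 called by limma, with 26 whose resilient arrays exceeded all controls. These counts were 16 higher and 2 lower with arrays shifted to one median and 8 higher and 2 lower with quantile normalisation. As deposited, 13.6% of all genes were higher and 7.6% lower at such a p, and 16.7% had resilient arrays above all controls. Of the 5739 genes above the receptor range 1072 were higher and 309 lower at such a p. Without resilient 1 the number higher was 55, with arrays shifted to one median it was 55 and with quantile normalisation it was 46 of 61. The DNA methyltransferase gene Dnmt3a was at 10.00, 9.99 and 9.82 in controls and 10.16, 10.21 and 10.21 in resilient mice (difference 0.25, SE 0.053, limma adjusted p = 0.179). Kdm5a, a histone H3 lysine demethylase, was at 9.59, 9.53 and 9.69 and 9.83, 9.79 and 9.99 (difference 0.27, SE 0.062). Kmt2a and Kmt2b, which methylate the same histone, differed by 0.18 (SE 0.042) and 0.19 (SE 0.043), and the controls of Kmt2a lay within 11.03 to 11.04. Between susceptible mice and controls the limma adjusted p was 0.046 for Dnmt3a, 0.0492 for Kdm5a, 0.044 for Kmt2a and 0.036 for Kmt2b. The lower member with the smallest p was Dnmt3l, an inactive relative expressed in germ cells, at -0.12 and near the lower end of the array.

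Of 36 chromatin remodellers and bromodomain proteins 31 were higher, with a median of 0.09. At an unadjusted p under 0.05 there were 14 higher and 0 lower, against 13.6% and 7.6% of all genes. With quantile normalisation 24 of 36 were higher, with 5 higher and 1 lower at such a p. Susceptible mice also had a median of 0.09 against the same controls for this list. Bptf, the large subunit of the NURF remodeller, was at 10.23, 10.17 and 10.25 in controls and 10.34, 10.42 and 10.38 in resilient mice (difference 0.16, SE 0.039), while a second Bptf entry, at a mean log2 signal of 10.27, differed by 0.06. The remodeller gene Chd8, known as an autism risk gene in humans, was at 10.01, 9.99 and 9.99 and 10.09, 10.27 and 10.29 (difference 0.22, SE 0.058), and Baz1b and the bromodomain gene Brd3 differed by 0.20 and 0.14. Zinc finger protein genes were higher for 115 of 164 (70.1%), with a median of 0.06. Of these genes 137 lay above the receptor range, where 69.9% of all genes were higher, with a median of 0.06. Of the 164, 43 higher and 10 lower had an unadjusted p under 0.05, against 23 higher and 27 lower with quantile normalisation. Histone genes themselves had the opposite balance, with 5 of 20 higher and a median of -0.07, and besides H4c6 the linker histone gene H1f1 differed by -0.15 (SE 0.053). Of the 20, 12 lay above the receptor range. In the lowest of 5 equal parts of all genes by mean signal 36.5% were higher.

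**Figure D4:**
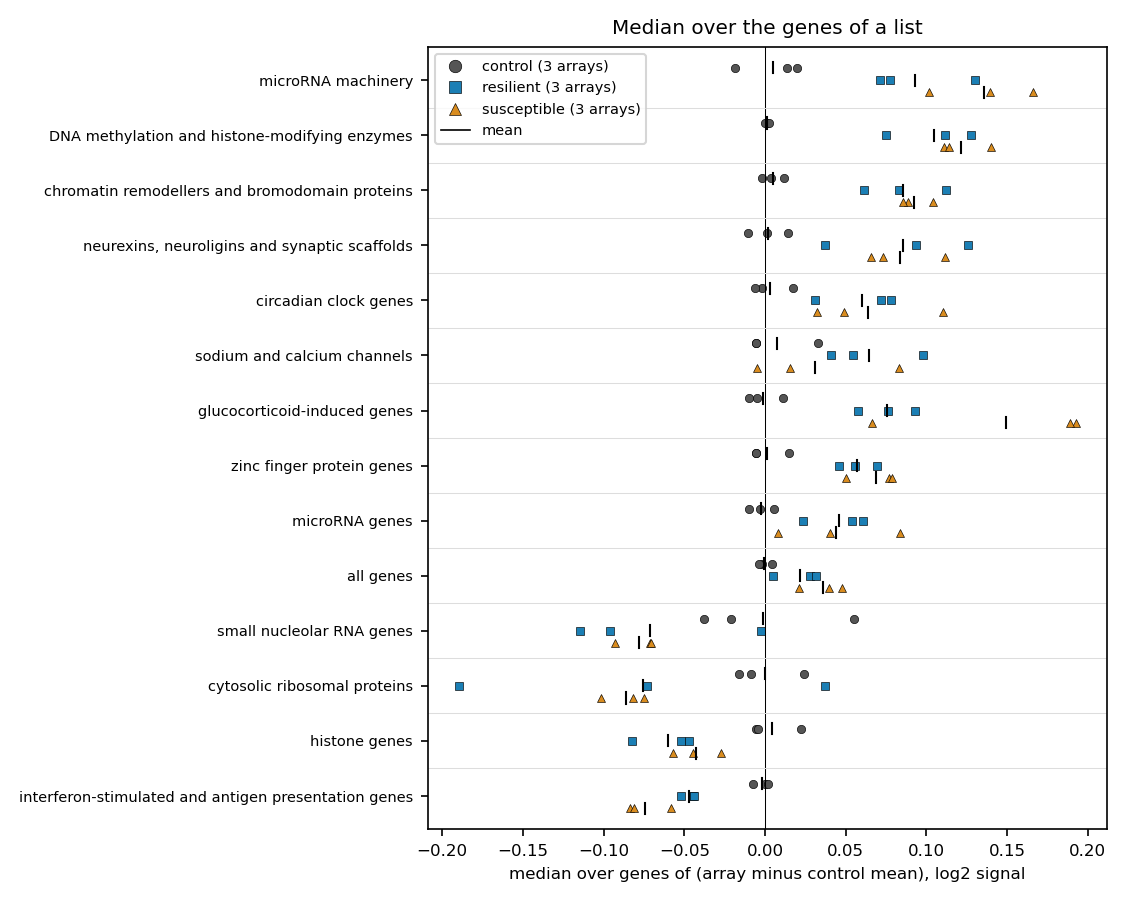
Median over the genes of a list of the difference between an array and the control mean (horizontal axis, log2 signal), for 13 lists and all genes. Points are arrays, coloured by group, and the black line is the group mean. All 3 resilient and all 3 susceptible arrays lie right of all controls for chromatin enzymes and left of them for histone genes.

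Length went along with direction across genes, but not in every list. Among protein-coding genes above the receptor range, the share higher in resilient mice was 56.4% in the shortest of 5 equal parts (loci up to 10.5 kb from start to end in RefSeq, introns included) and 67.3%, 73.8%, 80.5% and 82.9% in the following parts. The medians ran from 0.02 to 0.10. Without resilient 1 the shares at both ends were 56.8% and 82.9%, and with quantile normalisation 40.9% and 72.5%. Susceptible mice, against the same controls, had 65.6% and 76.5%. The median locus was 30.7 kb for all these genes, 48.6 kb for chromatin enzymes, 64.3 kb for remodellers, 51.3 kb for the silencing machinery, 34.3 kb for clock genes and 17.6 kb for glucocorticoid-induced genes. It was 0.76 kb for histones, 2.65 kb for ribosomal proteins and 6.19 kb for interferon-stimulated and antigen presentation genes. Lists that departed from this included collagens, laminins and integrins (99.0 kb, 43.9% higher), GABA genes (63.4 kb, 33.3%) and chemosensory receptors (0.954 kb, 77.2%). Glutamate receptor and transporter genes, at 224 kb, had 64.7% higher. Of the 41 collagen, laminin and integrin genes 18 lay above the receptor range, and of the 589 chemosensory receptor genes 30. The part of length in the difference of any one list was not tested.

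Ion channel and synaptic adhesion genes, with median loci of 111 kb for sodium and calcium channels and 188 kb for neurexins and scaffolds, were also more often higher than lower, as were 69.9% of all genes above the receptor range. Of 22 sodium and calcium channel genes 17 were higher, with a median of 0.06, or 14 with quantile normalisation. The presynaptic N-type calcium channel gene Cacna1b was at 11.04, 10.90 and 11.08 in controls and 11.14, 11.26 and 11.32 in resilient mice (difference 0.23, SE 0.059). The T-type channel gene Cacna1h, which helps neurons fire in bursts, was at 9.23, 9.15 and 9.43 and 9.44, 9.54 and 9.62 (difference 0.26, SE 0.076). Of 41 potassium and HCN channel genes 26 were higher, or 22 with a median of 0.01 under quantile normalisation, among them the pacemaker channel gene Hcn4 (difference 0.29, SE 0.083), while Kcnab1, an accessory subunit, was lower (difference -0.22, SE 0.082). Neurexins, neuroligins and synaptic scaffolds had 14 of 16 higher, with a median of 0.09, with the smallest p for the postsynaptic scaffold gene Shank2 (difference 0.13, SE 0.047). Guidance molecules and their receptors had 29 of 38 higher, or 21 with quantile normalisation, including Dcc, the netrin receptor (difference 0.13, SE 0.048), and Plxna2, a semaphorin receptor (difference 0.13, SE 0.049).

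Of 17 glutamate receptor and transporter genes 11 were higher, with a median of 0.06. The kainate receptor genes Grik3 and Grik5 differed by 0.19 (SE 0.054) and 0.11 (SE 0.039). Wnt and beta-catenin pathway genes were split, with 15 of 29 higher, or 13 with arrays shifted to one median, and a median of 0.03 that turned to -0.02 with quantile normalisation. Within it the co-receptor gene Lrp6 (difference 0.18, SE 0.054), the beta-catenin cofactor Bcl9l (difference 0.16, SE 0.037) and the destruction complex genes Apc2 (difference 0.24, SE 0.073) and Axin1 (difference 0.16, SE 0.053) were higher, and the ligand gene Wnt3 (difference -0.15, SE 0.053), near the lower end of the array, was lower. Neurotrophin and TrkB signalling genes had 13 of 19 higher, with Mtor, the growth kinase, at 0.15 (SE 0.055). Of 15 stress and affiliative neuropeptide and receptor genes 10 were higher, 1 at an unadjusted p under 0.05, the neurotensin receptor gene Ntsr1 (difference 0.20, SE 0.084). The peptide genes Avp (-0.11), Oxt (-0.09) and Cck (-0.11) had overlapping groups.

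Inhibitory and monoamine systems held few genes of the table. Of 6 GABA receptor and synthesis genes 4 were lower, and Gabrb2, a subunit of the main GABA-A receptor, was at 12.48, 12.58 and 12.44 in controls and 12.37, 12.37 and 12.31 in resilient mice (difference -0.15, SE 0.057). Further Gabrb2 entries, at mean log2 signals of 12.26 and 11.70, differed by -0.04 and -0.01. Of 13 monoamine genes 8 were higher, with a median of 0.08 that was -0.04 without resilient 1. Synaptic vesicle and SNARE genes were higher for 18 of 30. Among them Stx16, a syntaxin of the Golgi, was at 9.27, 9.31 and 9.23 in controls and 9.52, 9.47 and 9.42 in resilient mice (difference 0.20, SE 0.049).

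Matrix genes were mixed in direction. Of 41 collagen, laminin and integrin genes 18 were higher and 23 lower, 7 and 4 of them at an unadjusted p under 0.05, or 3 higher and 7 lower with arrays shifted to one median. The higher ones included the integrin gene Itga9, at 7.83, 7.99 and 8.00 in controls and 8.40, 8.25 and 8.15 in resilient mice (difference 0.33, SE 0.069), and the laminin genes Lama2 (difference 0.30, SE 0.073) and Lamc1 (difference 0.27, SE 0.064), which encode chains of the basement membrane. With the choroid plexus markers as a covariate the differences were 0.34, 0.28 and 0.25. Col6a6 was lower, at -0.21, in the range of the receptor genes. Protocadherin and cadherin genes had 19 of 28 higher, or 14 with quantile normalisation, with Celsr3, which guides axon tracts, at 8.97, 9.06 and 8.85 in controls and 9.14, 9.23 and 9.18 in resilient mice (difference 0.22, SE 0.063). Cytokine, chemokine and receptor genes had 26 of 60 higher, and 3 higher and 3 lower at an unadjusted p under 0.05, or 1 higher and 9 lower with arrays shifted to one median. As deposited, 13.6% of all genes were higher and 7.6% lower at such a p.

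Immune genes, ribosomal protein genes and small nucleolar RNA genes were more often lower. Of 41 interferon-stimulated and antigen presentation genes 28 were lower and 13 were higher (31.7%), the median being -0.07. An unadjusted p under 0.05 was seen for 6 lower and 3 higher genes, against 7.6% and 13.6% of all genes, with 0 called by limma. Only 13 of the 41 lay above the receptor range. In the lowest of 5 equal parts of all genes by mean signal 36.5% were higher, and in the next part 47.1%. Susceptible mice had a median of -0.07 against the same controls for this list. B2m, the light chain of class I antigen-presenting molecules, was at 12.23, 12.32 and 12.25 in controls and 12.22, 12.05 and 11.75 in resilient mice (difference -0.26, SE 0.10), with resilient 1 just below the lowest control. The double-stranded RNA sensor gene Oas1a differed by -0.32 (SE 0.099) and the class I-like gene H2-M3 by -0.20 (SE 0.059), both within the range of the receptor genes. Without resilient 3 the B2m difference was -0.13, and without control 2 that of Oas1a was -0.21. Ifi30, a lysosomal thiol reductase used in antigen processing, was on the other side, at 8.50, 8.60 and 8.45 in controls and 8.76, 8.76 and 8.85 in resilient mice (difference 0.27, SE 0.052). Cytosolic ribosomal protein genes had 2 of 11 higher and a median of -0.06, or -0.11 without resilient 1, and no member had an unadjusted p under 0.05. Small nucleolar RNA genes had 6 of 15 higher. Snord115, a cluster whose RNA guides modification of a serotonin receptor transcript, was at 11.59, 12.25 and 11.37 in controls and 11.41, 11.06 and 11.18 in resilient mice (difference -0.52, SE 0.21), with control 2 far above the rest. Without control 2 it differed by -0.26.

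What set resilient apart from susceptible mice after the same defeat was addressed by comparing their arrays directly. limma called 0 of 9803 genes (0.0%), the smallest adjusted p was 0.346, for Syt10, and 1158 genes (11.8%) had an unadjusted p under 0.05. A set of 53 genes (0.541%) lay above the receptor range with resilient arrays apart from all controls and from all susceptible arrays in one direction, at an unadjusted p under 0.05 in both comparisons, 38 higher (0.388%) and 15 lower (0.153%). These were picked by their values, so what follows describes them and is no test.

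Syt10, a calcium sensor of vesicle release known from the mouse olfactory bulb, was at 10.52, 10.57 and 10.48 in controls, 10.67, 10.58 and 10.71 in resilient and 10.33, 10.30 and 10.36 in susceptible mice. The controls lay between the defeated groups, and resilient minus susceptible was 0.32 (SE 0.044). The chemokine gene Ccl28 had the same order, at 7.99, 7.98 and 7.98 in controls, 8.04, 8.31 and 8.09 in resilient and 7.70, 7.74 and 7.87 in susceptible mice (difference 0.38, SE 0.071). Gjd2, which encodes connexin 36 of the electrical synapses between neurons, was at 8.68, 8.63 and 8.63 in resilient mice, 8.55, 8.37 and 8.28 in controls and 8.49, 8.41 and 8.41 in susceptible mice. For Gjd2 it was the resilient group alone that stood away. Parn, a nuclease that shortens poly(A) tails, was at 7.93, 7.84 and 7.81 in resilient mice, 7.63, 7.64 and 7.69 in controls and 7.45, 7.70 and 7.70 in susceptible mice. Resilient minus susceptible was 0.21 (SE 0.063) for Gjd2 and 0.24 (SE 0.067) for Parn. The guidance receptor gene Unc5d (difference 0.23, SE 0.050), the orphan nuclear receptor gene Esrrg (difference 0.23, SE 0.080), the GTPase regulator Arhgap10 (difference 0.19, SE 0.072) and Olfr134 (difference 0.24, SE 0.10) completed the 8 largest of the 38 higher genes. Without resilient 2 the difference of Ccl28 from controls was 0.08 instead of 0.16.

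On the lower side Henmt1, the enzyme that methylates the ends of piRNAs, was at 6.41, 6.40 and 6.37 in resilient mice, 6.46, 6.50 and 6.66 in controls and 6.78, 6.73 and 6.62 in susceptible mice, a resilient minus susceptible difference of -0.32 (SE 0.060). Ube2l6, which conjugates the interferon-induced modifier ISG15, was at 7.21, 7.23 and 7.31, 7.42, 7.56 and 7.47 and 7.44, 7.54 and 7.37 in the same order (difference -0.20, SE 0.057). Rflnb, a filamin-binding protein, had tight values, at 8.12, 8.11 and 8.11 in resilient mice, 8.26, 8.21 and 8.27 in controls and 8.25, 8.27 and 8.22 in susceptible mice. Nhsl1 was at 8.99, 9.01 and 8.96 in resilient mice, 9.08, 9.10 and 9.08 in controls and 9.12, 9.20 and 9.24 in susceptible mice, but a second entry of Nhsl1, at a mean of 8.85, differed between resilient mice and controls by 0.08 rather than -0.10. Acot10 (difference -0.25, SE 0.098), the glycosylation enzyme Alg8 (difference -0.14, SE 0.056) and the mitochondrial ribosome gene Mrps16 (difference -0.14, SE 0.046) completed the 8 largest of the 15 lower genes, with Dnahc3, an axonemal dynein with many entries whose mean over all entries differed from controls by 0.02 instead of -0.14. Other than Syt10, the 15 genes described here from the 8 largest each way had a resilient minus susceptible adjusted p of 0.411 by limma.

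**Figure D5:**
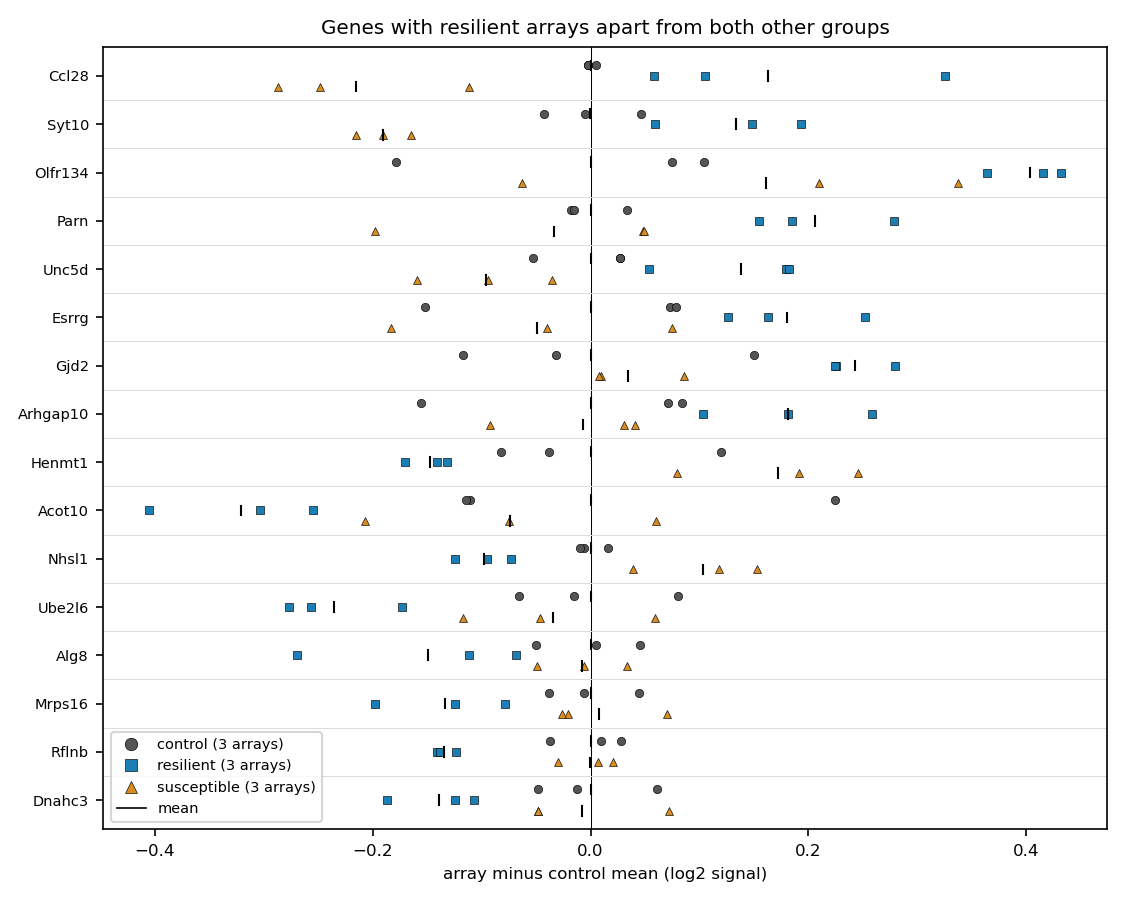
Difference of each array from the control mean (horizontal axis, log2 signal) for 16 of the 53 genes whose resilient arrays lay apart from both other groups, the 8 largest in each direction. Points are arrays, coloured by group, and the black line is the group mean. For Ccl28, Syt10 and Nhsl1 the resilient and susceptible arrays lie on opposite sides of all controls.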

How the data were processed

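Ago2-bound RNA of mouse amygdala was measured on 9 Affymetrix whole-transcript arrays. The values used are the log2 signals that the authors deposited, made with RMA per the submitters' processing notes, which also name Partek; the probe summaries behind them were not analysed here. The deposited table is not the whole array: computed from its own values, every gene has at least 1 entry with a 3-group ANOVA p of at most 0.287, so the table is limited to genes that differed somewhat among these same groups, and p-values and list counts are not those of an unselected array. A further 9 value columns whose names match no sample were not used. Entries were named through the platform annotation and RefSeq, and for a gene with several entries the one with the highest mean was taken, giving 9803 genes.

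One limma model (version 3.58.1, R 4.3.3) took all 9 arrays with 1 coefficient for each group, so that the spread is estimated in common, and p-values were adjusted by Benjamini-Hochberg over all 9803 genes with a threshold of 0.05. The signal floor, 6.12, is the 95th percentile of the mean signals of olfactory and vomeronasal receptor genes. Arrays have no read depth, and 3 arrays per group limit the precision. The procedure was tested on simulated data with known changes.

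The comparison, the gene lists and the tests were chosen with earlier results of these data known, and several list definitions were corrected after values had been seen. Genes named by rule were 6 fixed genes, the 12 largest differences each way above the floor with unadjusted p under 0.05 and no overlap, the 8 largest each way that also stood apart from susceptible arrays, up to 4 genes of smallest p per list, and 6 microRNA genes of smallest p, leaving predicted genes and pseudogenes out. Ago1, Arntl, Arntl2, Axin1, B2m, Cdkn1a, Dnmt3l, Grik5, Hsp90aa1, Kcnab1, Nfil3, Nfkbia, Nr1d1, Oas1a, Per1, Plin4, Plxna2, Sgk1, Tnrc6b, Tsc22d3, Wnt3 and Xpo5 lie outside these rules and were chosen after their values were seen. Results for some genes are not reported here. Medians of lists describe them and carry no test. Alternatives were other scalings, entry rules, priors, weights, covariates, a floor, a replicate block and leaving out each array.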

Additional observations from a re-analysis of the deposited data

Results flagged for a closer look

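Both defeated groups are compared with the same controls, and for 3 named genes all resilient arrays lay on one side of the controls and all susceptible arrays on the other. Syt10 differed between resilient and susceptible mice by 0.32 (SE 0.044) on the log2 scale, with controls in between, and its limma adjusted p of 0.346 is the smallest of that comparison. Ccl28 differed by 0.38 (SE 0.071) and Nhsl1 by -0.20 (SE 0.039), both with an adjusted p of 0.411 by limma, so none of the 3 differences passed the test. Over all genes 14 of 9803 (0.143%) had such opposite sides.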

How the results depend on the processing

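Over 20 alternatives limma called 0 genes between resilient and control mice, with a range of 0 to 3 when 1 array was left out. The exception was without susceptible 1, where it called 3. They were the pseudogene Btnl5-ps at -0.62 and the predicted genes Gm3809 at -0.56 and Gm9081 at -0.60, chosen here as the only calls. Their differences were the same with all arrays, because susceptible arrays enter this comparison only through the shared spread. What changed in that spread was not tested. With all arrays 2077 genes had an unadjusted p under 0.05. The smallest adjusted p ranged from 0.0351 to 0.625. Between resilient and susceptible mice calls ranged from 0 to 6 when 1 array was left out, with 6 without susceptible 1. The number of genes at an unadjusted p under 0.05 was 1298 above the signal floor, where fewer genes were tested, 3229 with array weights, whose cause was not tested, and 1302 to 2254 with 1 array left out, the lowest without resilient 2.

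Signs turned for Ntrk2 with arrays shifted to one median (-0.0039), Dnahc3 with the mean of all entries (0.0158), Hsp90aa1 (0.0224) and Sgk1 (-0.0039) with quantile normalisation, and Drd1 with array weights (-0.0102), and the cause was not tested. With 1 array left out the differences of genes whose sign turned ranged from -0.0355 to 0.1995 for Drd1, -0.2797 to 0.5526 for Scn4b and -0.0247 to 0.0068 for Hsp90aa1, the first 2 turning without resilient 1. Of 2428 recomputed differences of named genes 2416 kept their direction and stayed above an adjusted p of 0.05. Of 960 recomputed list medians 114 moved by more than the SD between resilient arrays.

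The labels give array numbers but do not state that they pair the samples. The deviations of same-numbered control and resilient arrays correlated at 0.247 for number 1 and -0.078 for number 2, and those of susceptible and resilient arrays at 0.118, 0.017 and 0.074 across genes. For control and susceptible arrays they were 0.072 and -0.037. Differently numbered arrays of different groups ranged from -0.281 to 0.35, so these values cannot tell whether the numbers pair the samples. With the replicate block limma called 0 genes in both comparisons, and 1449 had an unadjusted p under 0.05 between resilient and control mice.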

Other observations

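Chemosensory receptor genes, which hardly any amygdala cell uses, were higher in resilient mice for 455 of 589 genes (77.2%), with a median of 0.07. The share higher over all genes was 58.4%. An unadjusted p under 0.05 was seen for 104 higher and 16 lower receptor genes, against 13.6% and 7.6% of all genes. With arrays shifted to one median 394 were higher, and 56 higher and 47 lower had such a p. With quantile normalisation 474 were higher, and 151 higher and 10 lower had such a p. Over all genes the share higher differed with the signal. In 5 equal parts by mean signal, from the lowest, the shares were 36.5%, 47.1%, 63.6%, 78.8% and 66.0%. By kind of gene in RefSeq, 61.5% of protein-coding genes were higher, 28.7% of 240 long non-coding RNA genes and 21.8% of 271 pseudogenes. The splits by length, signal and kind of gene were chosen after seeing the data.

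Solute carrier genes, which move nutrients, ions and transmitters across membranes, were higher for 109 of 171, with a median of 0.03, a balance that was 84 of 171 with arrays shifted to one median. Respiratory chain genes were higher for 10 of 26, with a median of -0.05, and mitochondrial ribosome genes for 11 of 18, with a median of 0.05 that was -0.02 with quantile normalisation. Reln, which encodes the matrix protein reelin made by interneurons, was at 9.70, 9.52 and 9.79 in controls and 9.59, 10.20 and 10.41 in resilient mice (difference 0.40, SE 0.17), and the 2 other interneuron markers in the table left the list median at 0.05. Immediate early genes, which follow recent neuronal activity, were higher for 2 of 7, with a median of -0.02 that was 0.01 without resilient 1.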
